A study of Mus musculus with 12 samples.

Results

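C2C12 cells that had been in differentiation medium with TNF for 48 h were compared with the proliferating myoblasts from which differentiation starts, over all genes of the counts table. These were 6 of the 12 libraries of the series, 3 in each group, chosen by their labels and not by any measured value. C2C12 is an established mouse myoblast line, labelled strain C57BL/6 and used at passages 5 to 10. The proliferating cells (0 h) were kept in DMEM with 10% fetal bovine serum. The TNF cells were moved at near confluence to DMEM with 2% horse serum and received TNF alpha at 10 ng/ml for 48 h, and the control cells, set beside them here, had the same 48 h of low serum without TNF. The remaining group of 3 libraries had Fbxl2 silenced by siRNA and enters here through the filter on low counts and the shared estimates of the fit; whether other groups received an siRNA is not given in the sources used here.

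Myoblasts leave the cell cycle when serum is lowered, express Myog after Myod1, and then switch on contractile proteins and fuse into myotubes. TNF is an inflammatory cytokine that signals through its receptors, TRAF adaptors and the IkB kinase complex to free NF-kB dimers, which induce chemokines, their own inhibitors and other defence genes. It is known in muscle for its part in wasting and for blocking differentiation. Signalling from interferon receptors switches on a separate set of interferon-stimulated genes, among them antiviral enzymes and the machinery of antigen presentation.

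The counts of the 6 libraries summed to between 26974009 and 32096007, and 3 counts, taken as the floor of detection, were worth 0.0959 to 0.112 CPM. CPM are counts divided by the library total, which was scaled by TMM factors, and compare a gene between libraries, not genes with each other. Whether replicates A, B and C came from separate cultures is not stated in the labels, and each p-value therefore rests on library-to-library spread that may be technical. No pair of replicates held identical values. All 8 skeletal muscle lineage markers were measured in all 6 libraries, with a summed level of 2580 to 2850 CPM in proliferating and 2010 to 2070 CPM in TNF-treated cells. The groups differ in TNF, serum and time together, and in this comparison these cannot be told apart. For that reason the control values at 48 h stand beside the main results; they are measured from the same proliferating libraries, so both sets of changes share those libraries and are not independent.

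Most genes differed between TNF-treated cells and proliferating myoblasts. Of 12736 genes tested with edgeR's quasi-likelihood test, 9279 were called at a Benjamini-Hochberg adjusted p under 0.05 (72.9%), 4624 of them higher with TNF (36.3%) and 4655 lower (36.5%). A change of at least 2-fold was called higher for 1396 genes (11%) and lower for 781 (6.13%), and the median absolute log2 fold change of called genes was 0.498. At an unadjusted p under 0.05 the count was 9493. The libraries of both groups did not overlap for 9321 genes (73.2%), 4664 higher (36.6%) and 4657 lower (36.6%). The median log2 fold change of all genes tested was 0. A count of called members in a gene list has to be read against these shares. A gene could pass the filter on low counts through any group, and without counts in proliferating cells it could only be called higher. In the same fit 6960 genes (54.6%) were called between TNF and control, 3954 higher with TNF (31%) and 3006 lower (23.6%), and 9836 (77.2%) between control and proliferation. The larger side in TNF against control turned with the scaling: 56.8% of its calls were higher here, 46.1% with library totals and 46.5% with upper quartile factors. The authors' deposited table for proliferation holds, judged by its values and not by a label, fold changes of TNF over proliferation. Its log2 fold changes differed by a median of 0.0011 from the TNF ratios here and by 0.2139 from the control ratios. The ratios of Fbxl2 siRNA cells were not compared with it. The authors' table listed 8895 of 12732 genes in common as called, and 8869 of them were called here in the same direction and 0 in the opposite.

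**Figure D1:**
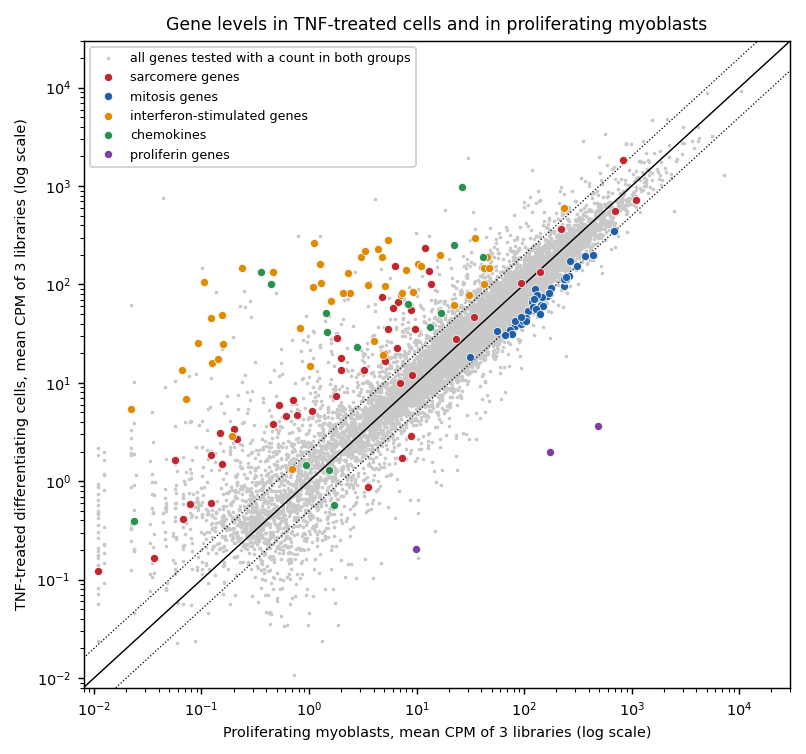
Mean CPM of the 3 TNF libraries against mean CPM of the 3 proliferating libraries for genes tested with a count in both groups, on log axes; the solid line marks equality and the dotted lines 2-fold. Interferon-stimulated genes and chemokines lie mostly above the upper dotted line, sarcomere genes mostly above it, mitosis genes below the solid line, and proliferin genes farthest below.

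**Figure D2:**
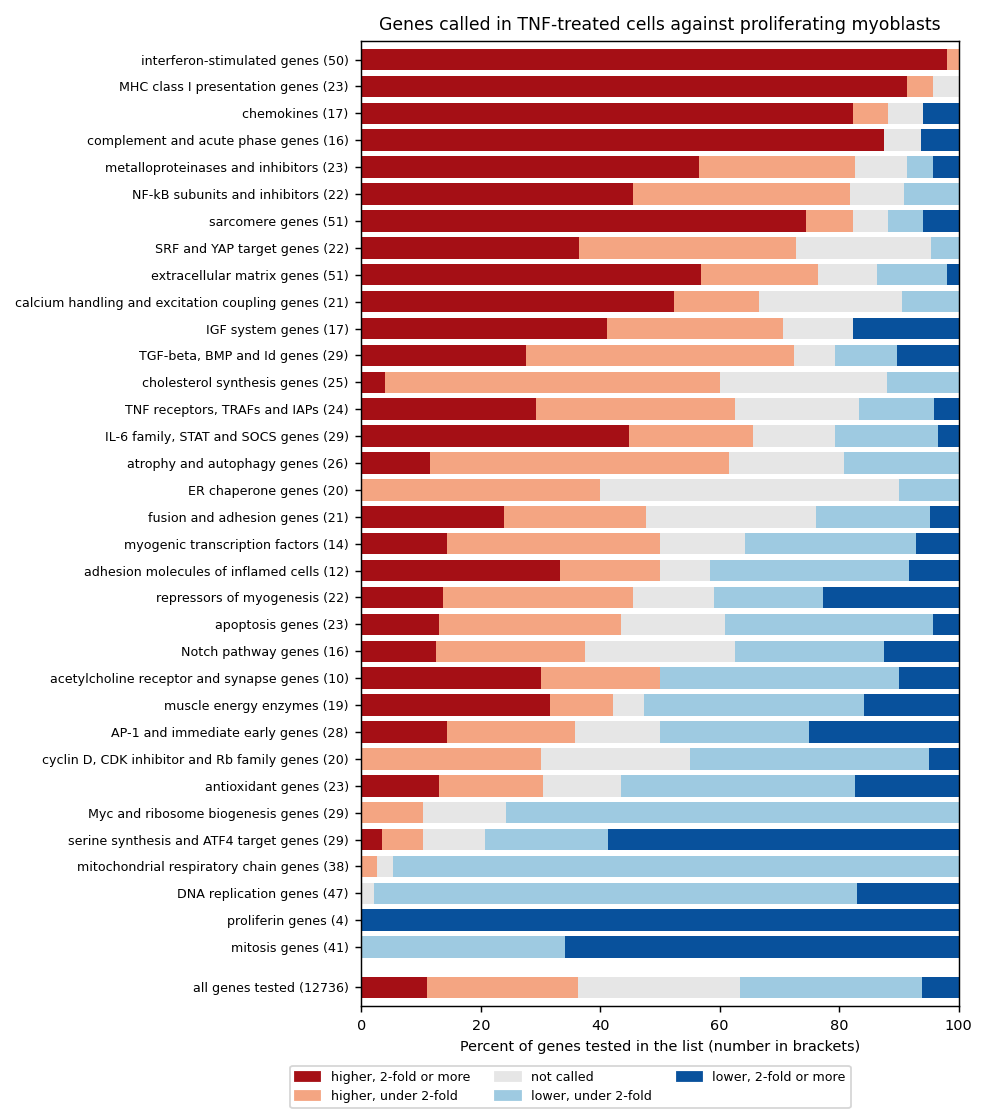
Share of the tested genes of each list called higher or lower in TNF-treated cells, with all 12736 genes tested in the lowest bar. All 50 interferon-stimulated genes were called higher and all 41 mitosis genes lower, while 42 of 51 sarcomere genes were called higher.

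Myog and most sarcomere genes rose from their proliferating level in the presence of TNF, while Myod1 fell. Myod1, the bHLH factor that commits cells to the muscle lineage, measured 73.5, 74.1 and 76.5 CPM in the proliferating libraries and 45.7, 45.8 and 42.3 CPM with TNF, with no overlap (log2 fold change -0.74 ± 0.051 (SE), adjusted p = 3.81e-11). Control cells held 97.2 ± 3.55 CPM (SD, n = 3), above both other groups. Myog, the bHLH factor that starts terminal differentiation, measured 25.2, 21.4 and 21 CPM in proliferating cells and 91.4, 70.6 and 77.7 CPM with TNF (log2 fold change 1.83 ± 0.19 (SE), adjusted p = 1.62e-05). Every TNF library lay above every proliferating one and below the control level of 302 ± 22 CPM. In bulk libraries fewer cells expressing a gene and less RNA per cell cannot be told apart.

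Among 14 myogenic transcription factors tested, 7 rose, 5 fell and 2 did not pass the test, against 36.3% of all genes called higher and 36.5% called lower. Of the rises 2 reached 2-fold, and of the falls only that of Myf6, a late bHLH factor, which averaged 0.611 in proliferating, 0.321 in control and 0.280 in TNF-treated cells (CPM). Eya4, a transcriptional coactivator, rose to 66.6 CPM from 32.5 (log2 fold change 1.04 ± 0.058 (SE), adjusted p = 1.25e-12), and Tead1, which binds muscle gene promoters, rose by 0.51 on the log2 scale (adjusted p = 1.21e-07). Mef2c, the partner of MYOD1 and MYOG on muscle promoters, averaged 5.82 in proliferating, 25.8 in control and 6.81 in TNF-treated cells (CPM), and its log2 fold change from proliferation of 0.24 did not pass (adjusted p = 0.275). Myf5, the sister factor of Myod1, fell from 53 to 36.9 CPM. Tead4 fell from 14.3 to 9.42 CPM, while control cells held 26.1. The median log2 fold change of the list was 0.249 with TNF and 0.574 in control cells.

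Most sarcomere genes rose. Of 51 tested, 42 were higher than in proliferating cells, 38 of them by at least 2-fold, 6 were lower and 3 were not called; 3 further members lay below the filter on low counts. The list's median log2 fold change was 2.62, or 2.53 when members without any count in one group were put at the detection floor, beside 4.81 in control cells and 0 over all genes. Myh3, the embryonic myosin heavy chain, measured 7.50, 5.40 and 6.05 CPM in proliferating cells and 193, 124 and 143 CPM with TNF (log2 fold change 4.6 ± 0.31 (SE), adjusted p = 1.11e-06), and control cells held 737 ± 88.2 CPM. Acta1, skeletal alpha-actin, rose from 14.9, 10.1 and 11.2 to 273, 206 and 232 CPM (log2 fold change 4.29 ± 0.22 (SE), adjusted p = 8.5e-08). Mybph, a myosin-binding protein, went from 6.41, 3.39 and 4.41 to 83.2, 65.6 and 74.2 CPM. In these genes replicate A held the highest level of each of the proliferating, control and TNF groups, and the groups stayed apart.

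Fetal and adult heavy chains rose as well, from low levels. Myh8, the perinatal chain, averaged 0.148 in proliferating, 22.5 in control and 3.08 in TNF-treated cells (CPM). Myh1 averaged 1.97 in proliferating, 57.7 in control and 13.6 in TNF-treated cells, and Myh7, the slow chain, 0.608 in proliferating, 26.9 in control and 4.65 in TNF-treated cells. Fast troponin genes Tnnc2 and Tnnt3 rose by 3.14 and 2.72 on the log2 scale, and Mylpf, the fast regulatory light chain, by 3.39. Each stood below its control mean, and the log2 differences of TNF from control were -2.26, -2.03 and -1.98. Titin (Ttn), cardiac troponin T (Tnnt2) and Cryab did not pass the test against proliferation. Actn3 fell from 146, 122 and 138 to 83, 76 and 77.5 CPM (log2 fold change -0.78 ± 0.081 (SE), adjusted p = 3.27e-07), and Des, the muscle intermediate filament, fell by 0.59 on the log2 scale.

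Promoter sequences were set beside these values for 2 sarcomere genes that rose, because muscle bHLH factors are known to bind E-boxes. The windows hold the 160 bases before the RefSeq start (build GRCm38.p6), read 5′ to 3′ on the gene's strand, with CAGCTG E-boxes in capitals. They lie at chr1:134193288-134193447 (plus strand) for Mybph and chr7:127211448-127211607 (plus strand) for Mylpf, and the E-box begins 79 and 51 bases before the start. The Mylpf start matched a GENCODE transcript, but GENCODE places the gene's own start at 127208890. The Mylpf window therefore lies inside that gene's span, without overlapping an exon.
Mybph: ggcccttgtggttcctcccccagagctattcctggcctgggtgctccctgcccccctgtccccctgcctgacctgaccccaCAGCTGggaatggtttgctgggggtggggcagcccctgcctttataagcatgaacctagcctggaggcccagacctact
Mylpf: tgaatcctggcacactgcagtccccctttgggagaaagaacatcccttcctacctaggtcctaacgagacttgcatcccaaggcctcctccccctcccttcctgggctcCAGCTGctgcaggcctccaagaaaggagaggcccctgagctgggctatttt
Over 250 bases before to 50 after the start, searched on both strands, CAGCTG was present in 16 of 41 sarcomere promoters in the table (39%) and in 16.1% of all 27025 promoters. The MEF2 consensus was present in 8 of these 41 (19.5%) and in 3.26% of all. Mylpf measured 15.1, 11.7 and 12.1 CPM in proliferating cells and 157, 118 and 134 CPM with TNF, with no overlap. A match is a description of letters and not evidence of binding.

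Fusion genes were split. Of 21 tested, 10 rose, 5 fell and 6 were not called, against 36.3% of all genes called higher and 36.5% called lower. The median was 0.061 with TNF beside 0.472 in control cells. Mymk, which encodes the fusogen myomaker, measured 6.68, 4.73 and 5.42 CPM in proliferating cells and 50.2, 38.8 and 45.2 CPM with TNF (log2 fold change 2.99 ± 0.22 (SE), adjusted p = 1.37e-06), against 173 ± 13.8 CPM in control cells. Mymx, its micropeptide partner myomixer, averaged 1.13 in proliferating, 24.2 in control and 8.05 in TNF-treated cells. Adam12, a transmembrane metalloprotease of fusing myoblasts, rose from 17.9, 17.1 and 15.1 to 71.3, 65.8 and 67 CPM, and its log2 difference from control of -0.14 did not pass (adjusted p = 0.0964). Jam2, a junctional adhesion molecule, fell from 302, 341 and 319 to 101, 101 and 98.2 CPM (log2 fold change -1.68 ± 0.047 (SE), adjusted p = 1.31e-17). Cdh15, M-cadherin, fell from 267 to 193 CPM, while control cells held 417.

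Calcium handling genes mostly rose, with 14 of 21 higher, 2 lower and 5 not called, and 11 of the rises at 2-fold or more. Casq2, the calcium buffer of the sarcoplasmic reticulum, went from 3.26, 3.69 and 3.78 to 74.8, 50.4 and 55.4 CPM (log2 fold change 4.08 ± 0.29 (SE), adjusted p = 1.35e-06). Ryr3, a calcium release channel, rose from 1.35, 1.19 and 1.15 to 12.6, 11.3 and 9.74 CPM, and Srl, sarcalumenin, from 13.8, 9.86 and 11.2 to 59.1, 40.2 and 44.1 CPM. Jsrp1, a junctional reticulum protein, fell from 18.2 to 12.4 CPM. All 10 acetylcholine receptor and synapse genes tested were called, 5 higher and 5 lower, against 36.3% and 36.5% of all genes. Lrp4, the agrin receptor, rose from 20.2, 15 and 18.4 to 67.4, 61.5 and 65.5 CPM (log2 fold change 1.85 ± 0.12 (SE), adjusted p = 2.34e-08), and the embryonic subunit gene Chrng rose by 1.31. Chrnd, another receptor subunit, fell from 97.9, 81.8 and 96.2 to 43.1, 39.7 and 39.9 CPM (log2 fold change -1.17 ± 0.065 (SE), adjusted p = 1.28e-12), and Chrna1 and the kinase gene Musk fell, with log2 fold changes of -0.4 and -0.62.

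Muscle energy enzymes moved both ways, 8 of 19 higher, 10 lower and 1 not called, beside 36.3% of all genes called higher and 36.5% lower. Ckm, muscle creatine kinase, measured 1.38, 0.707 and 0.888 CPM in proliferating cells and 12.5, 10.2 and 11.7 CPM with TNF (log2 fold change 3.52 ± 0.23 (SE), adjusted p = 1.02e-08), and control cells held 53.9 ± 4.40 CPM. Ckb, the brain-type kinase, fell from 104, 102 and 107 to 54.8, 52.3 and 51.8 CPM. Eno3, muscle enolase, fell from 561, 561 and 586 to 265, 299 and 288 CPM (log2 fold change -1.0 ± 0.05 (SE), adjusted p = 1.81e-13). The control mean of Eno3 was 279 CPM, and TNF against control was not called. Ldha fell by 0.55 on the log2 scale to a level that was higher than in control cells by 0.78.

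**Figure D3:**
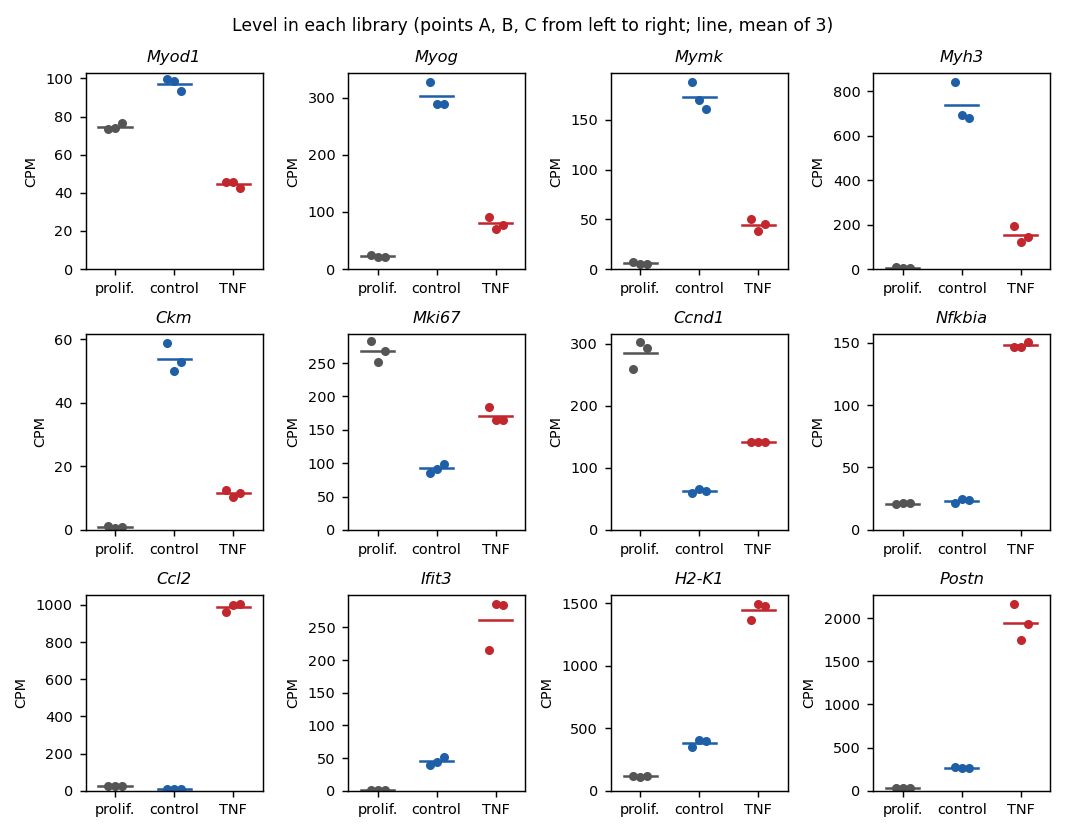
CPM of 12 genes in each library of proliferating, control and TNF-treated cells, with the mean as a line and every axis starting at 0. Myog, Mymk, Myh3 and Ckm with TNF lie between the other groups, Myod1 lies below both, and Nfkbia, Ccl2, Ifit3, H2-K1 and Postn lie above both.

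Cell division genes were lower with TNF than in proliferating cells and higher than in control cells. All 41 mitosis genes were called lower, 27 by at least 2-fold, with a median log2 fold change of -1.08 beside -1.90 in control cells, and all 41 were called higher than in control cells. Mki67, the proliferation antigen, measured 284, 252 and 268 CPM in proliferating cells and 184, 164 and 165 CPM with TNF (log2 fold change -0.65 ± 0.059 (SE), adjusted p = 4.25e-09), and control cells held 92.3 ± 6.80 CPM. Ube2c, the ubiquitin-conjugating enzyme of the anaphase-promoting complex, showed the largest fall of the list, from 129, 148 and 143 to 52.1, 50.1 and 49.8 CPM (log2 fold change -1.46 ± 0.064 (SE), adjusted p = 2.55e-14). Ncapg, a condensin subunit, fell from 140, 166 and 145 to 63.4, 56.9 and 59.1 CPM, and Cdca8, borealin, from 77.1, 78.6 and 77.5 to 30.5, 30.8 and 32.1 CPM. Their log2 differences from control were 0.68, 1.07 and 0.67, each called. Bub3 fell least, by 0.48.

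Of 47 DNA replication genes 46 fell, 8 of them by at least 2-fold, and E2f1 did not pass the test (log2 fold change 0.1, adjusted p = 0.187). The median was -0.776 with TNF and -1.52 in control cells, and 45 of the 47 were called higher than in control cells. Rfc4, a clamp loader subunit, went from 40.5, 44.8 and 41.4 to 18.4, 17.1 and 17.1 CPM (log2 fold change -1.27 ± 0.07 (SE), adjusted p = 1.16e-12). Rrm2, the regulated subunit of ribonucleotide reductase, went from 340, 436 and 388 to 165, 161 and 168 CPM and Gins1 from 16.2, 20.0 and 17.3 to 7.87, 7.76 and 7.79 CPM. In these 3 genes proliferating replicate B held the highest level and no library of one group reached the other.

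Promoters of 2 mitosis genes are shown because the cell cycle homology region TTTGAA is known from genes of late cell cycle phases. The windows are the 160 bases before the RefSeq start, with TTTGAA (read on the other strand as TTCAAA) in capitals, at chr19:37376222-37376381 (plus strand) for Kif11, a spindle motor, and chr11:99024190-99024349 (minus strand) for Top2a, topoisomerase II alpha. It begins 19 and 23 bases before the RefSeq start. For Kif11 that start matched no GENCODE transcript, and GENCODE places the gene's start at 37376403, downstream of the window's end, so its distance holds for the RefSeq start only.
Kif11: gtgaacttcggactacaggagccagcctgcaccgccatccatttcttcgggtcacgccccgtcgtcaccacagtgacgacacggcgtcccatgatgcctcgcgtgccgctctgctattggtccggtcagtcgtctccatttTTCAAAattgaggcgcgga
Top2a: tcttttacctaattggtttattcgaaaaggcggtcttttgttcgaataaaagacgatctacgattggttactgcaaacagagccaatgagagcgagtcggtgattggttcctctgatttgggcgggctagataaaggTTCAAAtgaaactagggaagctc
The hexamer was present in 25 of 34 mitosis promoters (73.5%) and in 18.1% of all promoters over the wider window. The GC box GGGCGG, a binding site of SP1, was present in 27 of 34 mitosis promoters (79.4%), 14 of 18 NF-kB subunit and inhibitor promoters (77.8%) and 35.9% of all. Kif11 averaged 171 in proliferating, 43.2 in control and 81 in TNF-treated cells (CPM) and Top2a 689 in proliferating, 184 in control and 352 in TNF-treated cells.

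Regulators of cell cycle entry moved in both directions, 1 of them by at least 2-fold. Of 20 cyclin D, CDK inhibitor and Rb family genes tested, 6 rose, 9 fell and 5 were not called, against 36.3% of all genes called higher and 36.5% called lower. Ccnd1, cyclin D1, fell from 260, 304 and 293 to 142, 142 and 142 CPM (log2 fold change -1.01 ± 0.056 (SE), adjusted p = 1.21e-12), and its log2 difference from control was 1.18. Cdkn2d and Rbl1, an inhibitor of CDK4 and CDK6 and an Rb relative, fell, with log2 fold changes of -0.96 and -0.78. Gadd45a, a stress-induced growth arrest gene, rose from 72.8, 51.8 and 52.1 to 103, 104 and 111 CPM. Cdkn1a, the CDK inhibitor p21 that rises when myoblasts exit the cycle, measured 259, 242 and 252 CPM in proliferating cells and 276, 270 and 269 CPM with TNF, against 522 ± 18.5 CPM in control cells. The log2 fold change from proliferation was 0.12 ± 0.047 (SE), adjusted p = 0.0340, and the call was lost under 10 of 18 alternative settings, with adjusted p-values from 0.0159 to 0.167 over all of them. Leaving out proliferating replicate B (0.0972) or C (0.0678) or TNF replicate A (0.0834), B (0.0583) or C (0.0582) was enough to end it (adjusted p by edgeR's quasi-likelihood test). Ccnd3, cyclin D3, averaged 134 in proliferating, 281 in control and 143 in TNF-treated cells (CPM). Rb1, the retinoblastoma gene, averaged 71.2 in proliferating, 116 in control and 71.2 in TNF-treated cells, and neither passed against proliferation (adjusted p = 0.0865 and 0.995).

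Genes of the NF-kB pathway mostly rose with TNF, several inhibitors of the pathway among them. Of 22 subunit and inhibitor genes tested, 18 were higher than in proliferating cells, 10 by at least 2-fold, 2 were lower and 2 were not called, with a median of 0.826 beside 0.249 in control cells. Nfkbia, which encodes IkB alpha, measured 20.4, 21.3 and 21.4 CPM in proliferating cells and 147, 147 and 150 CPM with TNF (log2 fold change 2.81 ± 0.056 (SE), adjusted p = 5.07e-20), against 23.5 ± 1.64 CPM in control cells. Nfkbie, IkB epsilon, went from 6.05, 5.17 and 5.72 to 118, 118 and 117 CPM (log2 fold change 4.37 ± 0.071 (SE), adjusted p = 1.46e-21). Bcl3, an atypical IkB protein that works with p50 and p52, went from 1.71, 1.12 and 1.64 to 16, 16.3 and 16.9 CPM. Tnip3, a partner of A20, had 0 counts in all proliferating libraries and 20.2, 19.8 and 21.9 CPM with TNF, at least 200-fold higher than a floor of 3 counts per library. With 2 counts in control and 1 in Fbxl2 siRNA cells, Tnip3 passed the filter through the TNF libraries alone and could only be called higher. In these 4 genes every TNF library lay above every proliferating library.

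Among the subunits, Relb rose by 2.89, Nfkb2 by 1.5, Rel by 1.13, Nfkb1 by 0.76 and Rela by 0.65 on the log2 scale. The kinase subunit gene Ikbkg (NEMO) fell by 0.27, from 92.5, 97.5 and 89 to 74.7, 81.9 and 75 CPM, and Chuk (IKK alpha) did not pass. Tnfaip3, which encodes the deubiquitinase A20, averaged 22.5 in proliferating, 35.3 in control and 97.2 in TNF-treated cells (CPM). Of 24 TNF receptor, TRAF and IAP genes, 15 rose, 7 by at least 2-fold, 4 fell and 5 were not called. Birc3, the inhibitor of apoptosis cIAP2, went from 0.197, 0.409 and 0.329 to 15.9, 16.2 and 16.3 CPM (log2 fold change 5.69 ± 0.19 (SE), adjusted p = 2.01e-16), Fas from 2.24, 2.90 and 2.53 to 39.1, 37 and 37.2 CPM and Tnfrsf9 (4-1BB) from 0.987, 1.00 and 0.658 to 10.3, 13.5 and 9.96 CPM. Tnfrsf1b, the second TNF receptor, rose by 1.32, while Tnfrsf1a, the main receptor, averaged 111 in proliferating, 100 in control and 112 in TNF-treated cells (CPM) and was not called (adjusted p = 0.791). Ripk3, the necroptosis kinase, fell from 11.1, 10.6 and 12.3 to 5.72, 6.14 and 6.16 CPM. Tnf itself lay below the filter, at 0.0920 CPM in proliferating and 0.115 CPM in TNF-treated cells.

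Most chemokine and complement genes tested rose by at least 2-fold. Of 17 chemokines tested, 15 were higher, 14 by at least 2-fold, 1 was lower and 1 was not called, with a median log2 fold change of 3.49 beside 0.295 in control cells; 8 further members lay below the filter. Ccl2, which attracts monocytes, measured 26.5, 25.8 and 27 CPM in proliferating cells and 964, 1002 and 1004 CPM with TNF (log2 fold change 5.23 ± 0.063 (SE), adjusted p = 2.91e-23), and 9.04 ± 1.02 CPM in control cells. Ccl5 went from 0.493, 0.223 and 0.362 to 122, 142 and 139 CPM (log2 fold change 8.51 ± 0.12 (SE), adjusted p = 2.85e-22). Cxcl9, a T cell attractant, had 0 counts in proliferating cells and 23.4, 20.5 and 22.4 CPM with TNF, at least 214-fold over the floor. Cxcl11 had 0 counts in proliferating cells and 11.8, 12.9 and 12.2 CPM with TNF. Cxcl9 and Cxcl11, without any proliferating count, could only be called higher. With 1 count in control and 3 in Fbxl2 siRNA cells, Cxcl11 passed the filter through the TNF libraries alone. Cxcl13, a B cell attractant, fell by 1.52 from 1.69 CPM.

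Of 16 complement and acute phase genes tested, 14 rose by at least 2-fold, 1 fell and 1 was not called; 8 members lay below the filter. The median was 5.63, or 4.53 when genes without any count in one group were put at that floor, and 2.02 in control cells. C3, the central complement component, held 0.132, 0 and 0 CPM in the proliferating libraries and 795, 704 and 759 CPM with TNF, against 0.352 ± 0.158 CPM in control cells (log2 fold change 13.88 ± 0.16 (SE), adjusted p = 1.11e-22). Its proliferating counts lay at or near 0, so the fitted fold change is imprecise and C3 could hardly have been called lower. Saa3, an acute phase apolipoprotein, went from 0.0987, 0.0372 and 0.164 to 129, 163 and 151 CPM. Serpina3g had 2 counts in the proliferating libraries and 5341 with TNF, a ratio of 2700 (95% counting interval 747 to 22300). Saa3 and Serpina3g, with 9 and 2 proliferating counts, could hardly have been called lower either. Genes of the Serpina3 cluster are near-identical copies, and reads could be split between them. C1s1 rose from 4.80, 3.83 and 3.75 to 750, 728 and 763 CPM (log2 fold change 7.5 ± 0.11 (SE), adjusted p = 1.71e-18). Without TNF it rose as well, to 101 ± 3.71 CPM in control cells (log2 fold change from proliferation 4.61). Cd55, which limits complement activation on the cell surface, fell from 23.7, 27 and 23.2 to 12.5, 11.4 and 12.3 CPM (log2 fold change -1.03 ± 0.084 (SE), adjusted p = 7.14e-10).

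Promoters of 3 of these genes are shown with matches to the NF-kB consensus in capitals, since NF-kB sites are known near the starts of TNF-induced genes. They are the 160 bases before the RefSeq starts of Nfkbia at chr12:55492648-55492807 (minus strand), Cxcl10 at chr5:92348890-92349049 (minus strand) and the MHC class I gene H2-K1 at chr17:34000348-34000507 (minus strand). Matches begin 29 bases before the start in Nfkbia, 159, 104 and 103 bases in Cxcl10 and 111 and 110 bases in H2-K1, where neighbouring matches overlap.
Nfkbia: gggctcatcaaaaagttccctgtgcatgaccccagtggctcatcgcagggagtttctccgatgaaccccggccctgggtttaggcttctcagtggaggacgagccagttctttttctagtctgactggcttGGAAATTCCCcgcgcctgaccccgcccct
Cxcl10: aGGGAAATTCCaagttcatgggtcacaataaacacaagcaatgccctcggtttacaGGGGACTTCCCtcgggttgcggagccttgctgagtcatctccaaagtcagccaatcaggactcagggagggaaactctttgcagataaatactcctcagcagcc
H2-K1: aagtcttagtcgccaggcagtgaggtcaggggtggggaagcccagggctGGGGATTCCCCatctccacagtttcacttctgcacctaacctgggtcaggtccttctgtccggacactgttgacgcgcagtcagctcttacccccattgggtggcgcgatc
Over the wider window the consensus was present in 9 of 18 NF-kB subunit and inhibitor promoters (50%), 6 of 17 chemokine promoters (35.3%) and 9 of 19 MHC class I presentation promoters (47.4%), against 8.18% of all promoters. It was also present in 8 of 36 promoters of interferon-stimulated genes (22.2%), 9 of 41 sarcomere promoters (22%) and 4 of 34 mitosis promoters (11.8%). In the narrower window from 100 bases before to 50 after the start it was present in 0 of the 19 presentation promoters and in 4.1% of all promoters. There it was present in 38.9% of the NF-kB subunit and inhibitor promoters and 29.4% of the chemokine promoters. Cxcl10, a T cell attractant, measured 0.625, 0.484 and 0.230 CPM in proliferating cells and 93.8, 104 and 103 CPM with TNF.

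**Figure D4:**
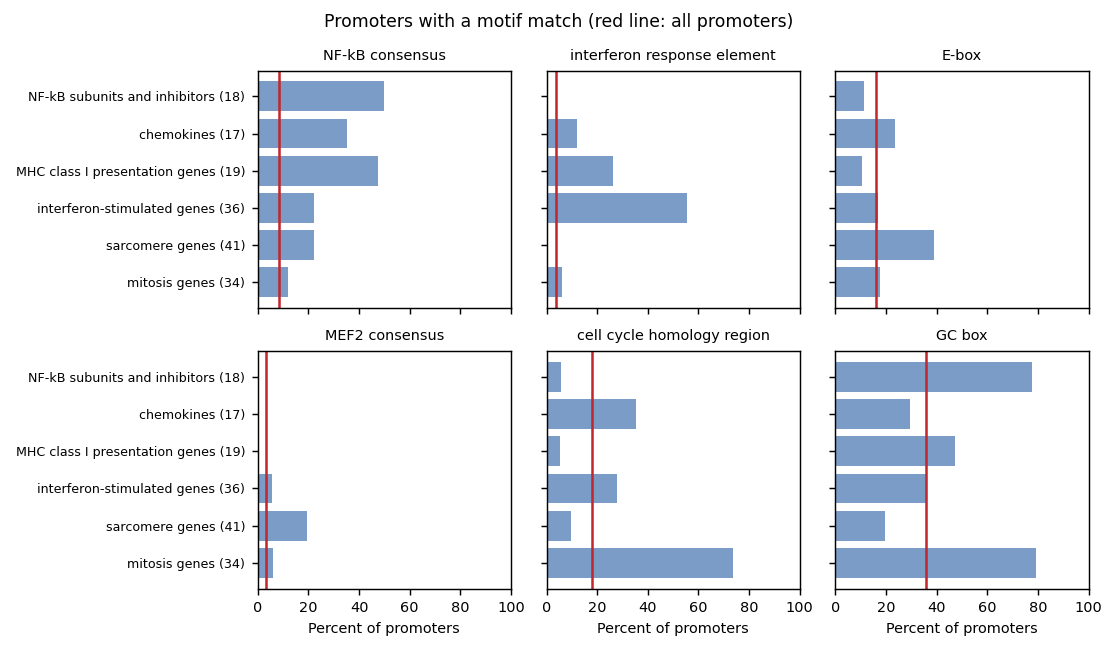
Percent of RefSeq promoters (250 bases before to 50 after the start) of 6 gene lists with a match to each of 6 motifs, with the number of promoters in brackets and the share of all 27025 promoters as a red line. Bars far right of the line include the cell cycle homology region in mitosis genes (73.5%) and the interferon response element in interferon-stimulated genes (55.6%).

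Cytokine signalling genes of the IL-6, JAK and STAT group rose in 19 of 29 cases, 13 by at least 2-fold, with 6 lower and 4 not called. Jak2, a kinase of cytokine receptors, went from 46.1, 48.9 and 48.2 to 389, 363 and 372 CPM (log2 fold change 2.97 ± 0.047 (SE), adjusted p = 1.18e-21), and control cells held 79.9 ± 1.96 CPM. Lif, a cytokine of the IL-6 family, went from 4.11, 3.65 and 3.78 to 30.1, 29.5 and 30.0 CPM. Il6 averaged 0.220 in proliferating, 0.235 in control and 5.40 in TNF-treated cells (CPM) and rose by 4.61 on the log2 scale. Stat3 rose by 1.03 to a level that did not pass against control (log2 difference 0.02, adjusted p = 0.681). Clcf1 fell from 17.1, 15.3 and 16.9 to 10.8, 11.6 and 10.7 CPM.

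Every interferon-stimulated gene tested was higher with TNF than in proliferating cells. All 50 were called and 49 reached 2-fold, with a median log2 fold change of 5.37 beside 3.32 in control cells, and 1 listed gene was absent from the table. Oas2 and Oas1g, without any proliferating count, passed the filter on low counts through other groups and could only be called higher. Oas2, which makes the second messenger that activates RNase L, had 0 counts in proliferating cells and 80.8, 117 and 106 CPM with TNF, at least 982-fold over the floor, against 21.2 ± 3.49 CPM in control cells. Oas1g had 0 counts in proliferating cells and 10.3, 15.1 and 15.4 CPM with TNF, at least 132-fold over the floor. Iigp1, an immunity-related GTPase, went from 0.0987, 0.149 and 0.0658 to 98.8, 111 and 106 CPM (log2 fold change 9.94 ± 0.28 (SE), adjusted p = 1.13e-11), against 16.9 ± 3.71 CPM in control cells. In Oas2 and Oas1g replicate A of TNF held the lowest TNF level.

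Ifit3, which binds viral RNA together with related proteins, measured 1.38, 1.08 and 0.888 CPM in proliferating cells and 216, 285 and 284 CPM with TNF (log2 fold change 7.87 ± 0.28 (SE), adjusted p = 5.23e-09), and 45 ± 6.67 CPM in control cells. Irf7, the interferon regulatory factor that amplifies type I interferon, rose from 0.987, 0.744 and 1.51 to 76.1, 110 and 99.5 CPM (log2 fold change 6.43 ± 0.23 (SE), adjusted p = 1.15e-09). The guanylate-binding protein genes Gbp3 and Gbp7 rose to 145, 170 and 170 and to 95.1, 108 and 110 CPM from means of 1.27 and 1.30. Parp14, a mono-ADP-ribosyltransferase, rose from 3.22, 3.57 and 3.09 to 202, 226 and 224 CPM (log2 fold change 6.04 ± 0.1 (SE), adjusted p = 8.6e-20). In control cells Irf7, Gbp3, Gbp7 and Parp14 averaged 25.3, 15.85, 23.1 and 42.5 CPM. Members of the Oas, Gbp and Ifit families are close copies of each other, so counts of single members are uncertain. The smallest rise of the list was that of Oasl1 (0.92), which was lower in control cells than in proliferating cells.

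The interferon response element, searched as the tetramer GAAA repeated after any 2 bases, is known as a binding site of IRF and STAT complexes, and the promoters of Isg15, a ubiquitin-like modifier, and Oas1g show overlapping copies of it. The 160 bases before the RefSeq starts lie at chr4:156200819-156200978 (minus strand) for Isg15 and chr5:120887614-120887773 (minus strand) for Oas1g, with the element in capitals, beginning 78, 72 and 66 bases before the start in Isg15 and 18 and 12 bases in Oas1g.
Isg15: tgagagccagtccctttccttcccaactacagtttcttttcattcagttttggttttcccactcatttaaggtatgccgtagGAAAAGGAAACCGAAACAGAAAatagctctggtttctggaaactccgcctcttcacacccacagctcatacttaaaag
Oas1g: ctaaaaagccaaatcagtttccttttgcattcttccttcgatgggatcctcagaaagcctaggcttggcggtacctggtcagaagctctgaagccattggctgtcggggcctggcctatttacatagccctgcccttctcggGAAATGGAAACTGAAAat
The element was present in 20 of 36 promoters of interferon-stimulated genes (55.6%), in 5 of 19 presentation promoters (26.3%) and in 3.49% of all promoters. Isg15 averaged 2.41 in proliferating, 24.1 in control and 82.3 in TNF-treated cells (CPM).

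Antigen presentation genes rose almost throughout. Of 23 MHC class I presentation genes 22 were higher, 21 by at least 2-fold, and only Pdia3 was not called; the median was 2.64 beside 1.14 in control cells. Psmb8, a catalytic subunit of the immunoproteasome, went from 0.263, 0.223 and 0.197 to 51, 65.2 and 65.4 CPM (log2 fold change 8.02 ± 0.17 (SE), adjusted p = 1.88e-18), and Psmb9 from 0.164, 0.0372 and 0.164 to 9.63, 12.8 and 11.3 CPM. Tap1, of the peptide transporter, went from 1.02, 1.15 and 1.08 to 30.7, 35.4 and 35.6 CPM (log2 fold change 4.96 ± 0.12 (SE), adjusted p = 1.89e-18). The heavy chain gene H2-K1 averaged 119 in proliferating, 383 in control and 1451 in TNF-treated cells (CPM), and H2-D1 114 in proliferating, 300 in control and 771 in TNF-treated cells. B2m, their shared light chain, averaged 352 in proliferating, 1124 in control and 2873 in TNF-treated cells. Class I heavy chain genes are near-identical copies, and their single values are uncertain. Among adhesion molecules, 6 of 12 rose, 5 fell and 1 was not called, against 36.3% of all genes called higher and 36.5% called lower. Vcam1, which binds leukocyte integrins, rose from 140, 138 and 135 to 708, 674 and 732 CPM (log2 fold change 2.35 ± 0.05 (SE), adjusted p = 1.47e-19), Icam1 had 0 counts in proliferating and control cells and averaged 6.79 CPM with TNF, and Cd44, the hyaluronan receptor, fell from 1047, 1141 and 1075 to 651, 603 and 588 CPM. Icam1, without any proliferating count, could only be called higher.

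Extracellular matrix genes were mostly higher than in proliferating cells, 39 of 51, with 29 at 2-fold or more, 7 lower and 5 not called. The median was 1.21, beside 1.34 in control cells and -0.023 for TNF against control. Postn, periostin, measured 31.3, 33 and 26.6 CPM in proliferating cells and 2161, 1747 and 1937 CPM with TNF (log2 fold change 6.01 ± 0.091 (SE), adjusted p = 7.37e-20), against 267 ± 10.7 CPM in control cells. Cilp, a cartilage matrix protein, rose from 0.263, 0.149 and 0.296 to 11.2, 8.61 and 11.2 CPM, below the control level of 152 ± 11.1. Lama4, a laminin chain of vessel and muscle basement membranes, rose from 0.460, 0.596 and 0.625 to 12.8, 11.7 and 12.5 CPM. Fibrillar collagen genes Col1a1 and Col5a1 rose by 2.0 and 1.45 on the log2 scale, while Nid1, nidogen, fell from 1241, 1118 and 1228 to 585, 513 and 522 CPM (log2 fold change -1.15 ± 0.054 (SE), adjusted p = 8.03e-14). For Nid1 the control mean was 571 CPM, and TNF against control was not called.

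Of 23 metalloproteinase and inhibitor genes 19 rose, 13 by at least 2-fold, 2 fell and 2 were not called. Mmp9, gelatinase B, went from 0.263, 0.149 and 0.329 to 91.4, 79 and 89.1 CPM (log2 fold change 8.41 ± 0.16 (SE), adjusted p = 1.5e-19), against 1.05 ± 0.362 CPM in control cells. The aggrecanase genes Adamts4 and Adamts5 rose to 276, 299 and 283 and to 229, 198 and 210 CPM from means of 31.4 and 32.1, with control means of 362 and 182. Htra3, a serine protease, fell from 13.9, 10.1 and 10.8 to 5.12, 4.56 and 5.07 CPM (log2 fold change -1.24 ± 0.13 (SE), adjusted p = 2.26e-07), while control cells held 45.5 ± 2.65 CPM. Targets of SRF and YAP rose in 16 of 22 cases, 8 by at least 2-fold, with 1 lower and 5 not called. Acta2, smooth muscle alpha-actin, rose from 573, 563 and 568 to 3414, 3358 and 3452 CPM (log2 fold change 2.58 ± 0.047 (SE), adjusted p = 1.11e-20), and Tagln, transgelin, from 93.3, 108 and 98.6 to 727, 642 and 682 CPM. In control cells Acta2 and Tagln averaged 2993 and 488 CPM. Actb fell by 0.16 on the log2 scale (adjusted p = 0.00338), a call that ended when replicate C of every group was left out (adjusted p = 0.109).

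Both IGF ligand genes rose with TNF and the binding protein gene Igfbp5 fell. Of 17 IGF system genes 12 rose, 7 by at least 2-fold, 3 fell, all 3 by at least 2-fold, and 2 were not called. Igf1, which drives myoblast differentiation and growth, went from 1.25, 0.968 and 1.15 to 39.9, 27.5 and 31 CPM (log2 fold change 4.86 ± 0.19 (SE), adjusted p = 1.09e-11), below the control level of 45.6 ± 4.99 (log2 difference -0.47 ± 0.11 (SE), adjusted p = 0.00218). Igf2, the autocrine factor of differentiating myoblasts, went from 1.74, 1.41 and 1.64 to 28.6, 22.4 and 24.6 CPM, below the control level of 77.8 ± 14.7 (log2 difference -1.63 ± 0.15 (SE), adjusted p = 5.64e-06). Igfbp7 rose from 148, 136 and 138 to 752, 673 and 722 CPM. Igfbp5, which binds IGF in the matrix, fell from 2829, 2109 and 2490 to 585, 556 and 549 CPM (log2 fold change -2.14 ± 0.08 (SE), adjusted p = 1.01e-13), and Igfbp2 and Igfbp6 fell, with log2 fold changes of -1.06 and -1.22.

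In the TGF-beta, BMP and Id list 21 of 29 genes rose, 8 by at least 2-fold, 6 fell and 2 were not called. Bmp4 rose from 1.05, 1.53 and 1.61 to 43, 38.6 and 44.8 CPM (log2 fold change 4.92 ± 0.11 (SE), adjusted p = 1.62e-19), Fst, the activin and myostatin antagonist follistatin, from 1.15, 1.00 and 1.12 to 21.2, 15.8 and 16.6 CPM, and Inhbb, an activin subunit, from 45.9, 43.7 and 43.2 to 308, 298 and 305 CPM. In control cells Bmp4, Fst and Inhbb averaged 23.5, 32.7 and 168 CPM. Gdf15, a stress-induced cytokine, fell from 25, 18.1 and 17 to 3.77, 3.68 and 3.44 CPM (log2 fold change -2.47 ± 0.15 (SE), adjusted p = 4.13e-10). Its control mean was 4.07 CPM, and TNF against control was not called. The Id genes, whose products block bHLH factors, all fell where tested, and the log2 fold changes of Id1, Id2 and Id3 were -1.73, -0.62 and -1.09. Of 16 Notch pathway genes 6 rose, 6 fell and 4 were not called, against 36.3% of all genes called higher and 36.5% called lower. The ligand gene Dll1 rose from 4.54, 2.75 and 4.27 to 19.7, 20.5 and 18.5 CPM, below its control mean of 35.4. The target Hey1 fell from 11.6, 12.5 and 13.9 to 4.99, 5.88 and 6.55 CPM, with a control mean of 15. Of 22 repressors of myogenesis 10 rose, 9 fell and 3 were not called, to be read beside the same shares of all genes. Bhlhe41 and Zeb1, which repress muscle genes, rose by 1.78 and 1.74 to means of 167 and 287 CPM, with control means of 143 and 244. Msc, musculin, fell from 15, 17.5 and 16 to 3.77, 4.82 and 4.25 CPM (log2 fold change -1.92 ± 0.091 (SE), adjusted p = 8.97e-14). Its control mean was 4.20 CPM, and TNF against control was not called.

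Most genes of serine synthesis and ATF4 targets fell. Of 29 tested 23 were lower, 17 by at least 2-fold, 3 were higher and 3 were not called, with a median of -1.12 beside -1.72 in control cells. Trib3, a pseudokinase induced by ATF4, went from 95.5, 40.5 and 58 to 15, 13.6 and 15.1 CPM (log2 fold change -2.15 ± 0.29 (SE), adjusted p = 0.000122), Chac1 from 115, 65.5 and 79.3 to 21.8, 21.5 and 22.3 CPM and Mthfd2, a mitochondrial folate enzyme, from 207, 155 and 173 to 51.8, 51.2 and 53.3 CPM. Proliferating replicate A held the highest level of all 3 genes, and all proliferating libraries lay above all TNF libraries. Phgdh, the first enzyme of serine synthesis, and Asns, asparagine synthetase, fell, with log2 fold changes of -1.29 and -1.76. Nupr1, a stress-induced chromatin protein, rose from 54.4, 34.2 and 37.2 to 100, 106 and 104 CPM (log2 fold change 1.3 ± 0.14 (SE), adjusted p = 1.31e-05).

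Of 38 mitochondrial respiratory chain genes 36 fell, none by 2-fold, 1 rose and 1 was not called, and the median was -0.458 with TNF and -0.467 in control cells. Cycs, cytochrome c, went from 61.7, 82.1 and 68.9 to 40.3, 38.1 and 33 CPM and Atp5b, of ATP synthase, from 2235, 2357 and 2336 to 1174, 1223 and 1239 CPM (log2 fold change -0.93 ± 0.046 (SE), adjusted p = 1.56e-13). Of 29 Myc and ribosome biogenesis genes 22 fell, 3 rose and 4 were not called; Nhp2 fell from 40.8, 49.6 and 47.9 to 27, 25.4 and 26 CPM, Myc was not called (log2 fold change -0.12, adjusted p = 0.131), and the Myc antagonist gene Mxd4 rose by 0.9. Of 23 antioxidant genes 7 rose, 13 fell and 3 were not called, against 36.3% of all genes called higher and 36.5% called lower. Nqo1, a classical NRF2 target, fell from 52.3, 67.5 and 60.8 to 11.2, 13 and 13.2 CPM (log2 fold change -2.27 ± 0.10 (SE), adjusted p = 1.57e-12), and Mt2, a metallothionein, rose from 23.9, 22.9 and 23.1 to 86.6, 90.0 and 97 CPM (log2 fold change 1.97 ± 0.055 (SE), adjusted p = 1.1e-17). In control cells Nqo1 and Mt2 averaged 10.3 and 27.4 CPM, and for Nqo1 TNF against control was not called.

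Ranked over all genes with at least 1 CPM in the lower group and 10 in the higher, the largest rise was that of Enpp2. It encodes autotaxin, the enzyme that makes lysophosphatidic acid, and measured 1.68, 1.08 and 1.05 CPM in proliferating cells and 320, 307 and 305 CPM with TNF (log2 fold change 7.92 ± 0.096 (SE), adjusted p = 2.91e-23), against 13.4 ± 0.522 CPM in control cells. Ifit3, C1s1, Gbp3, Irf7, Gbp7, Parp14 and Postn, given above, completed the 8 largest. The largest falls were those of the proliferin genes, placental hormones also made by dividing cells. Prl2c3 fell from 418, 542 and 514 to 2.94, 4.93 and 3.15 CPM (log2 fold change -7.07 ± 0.20 (SE), adjusted p = 2.39e-10) and Prl2c2 from 151, 191 and 177 to 2.24, 1.73 and 1.98 CPM. They stood at 3.31 ± 0.214 and 1.59 ± 0.286 CPM in control cells, and neither passed the test of TNF against control (adjusted p = 0.727 and 0.530). All 4 proliferin genes tested fell by at least 2-fold, with a median of -6.755, or -5.986 with genes lacking counts in one group at the floor; they are near-identical copies, so the split of reads among them is uncertain.

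Lgr6, a receptor of R-spondins, fell from 23.6, 23.5 and 23.8 to 1.05, 1.80 and 1.06 CPM (log2 fold change -4.19 ± 0.13 (SE), adjusted p = 7.71e-17), with a control level of 4.24 ± 0.753 CPM. Hhip, an inhibitor of hedgehog ligands, fell from 38.1, 36.8 and 32.8 to 2.56, 2.24 and 3.29 CPM, and Nefl, a neurofilament protein, from 214, 265 and 253 to 16.1, 20.8 and 19.6 CPM. Their control means were 2.93 and 11.3 CPM, and TNF against control was called for Nefl but not for Hhip. Sprr1a, Itgb7 and Krt19 fell, with log2 fold changes of -3.73, -3.7 and -3.53, and none of the 3 passed against control (adjusted p = 0.120, 0.695 and 0.239). Among genes with 3 counts or fewer in the TNF libraries, Cpn1 had 163 counts in proliferating cells and 3 with TNF, a ratio of 53.7 (95% counting interval 18.1 to 263). Bmp5 had 117 and 2 counts, a ratio of 57.8 (15.7 to 483), and Sparcl1 had 86 and 3, a ratio of 28.3 (9.38 to 140). Il7r and Alox12 had 63 and 55 counts against 1 and 3, with ratios of 62.3 (10.8 to 2500) and 18.1 (5.89 to 90.6).

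Some genes moved away from their proliferating level in opposite directions with and without TNF. Besides Ccl2, the rises with TNF against falls in control cells included Ccl7, Cxcl5, Lipg and Il2rg. Ccl7, another monocyte attractant, measured 22.5, 22.6 and 21.8 CPM in proliferating cells, 7.90 ± 1.55 in control cells and 238, 260 and 253 with TNF. Lipg, endothelial lipase, averaged 15.2 in proliferating, 7.35 in control and 27.3 in TNF-treated cells (CPM), and Il2rg, the common cytokine receptor chain, 16.4 in proliferating, 9.12 in control and 29.2 in TNF-treated cells. Cxcl5 averaged 13.3 in proliferating, 4.91 in control and 36.9 in TNF-treated cells. The falls with TNF against rises in control cells included Dhrs3, Htra3, Gpx3, Spon2, Cxcr4 and Ptn. Dhrs3, a retinaldehyde reductase, measured 23.8, 19.9 and 20.3 CPM in proliferating cells, 54 ± 1.94 in control cells and 8.54, 8.86 and 8.89 with TNF (log2 fold change from proliferation -1.29 ± 0.084 (SE), adjusted p = 1.7e-11). Gpx3, secreted glutathione peroxidase, averaged 24.6 in proliferating, 52.6 in control and 11.7 in TNF-treated cells (CPM), and Cxcr4, the receptor of CXCL12, 26.1 in proliferating, 59.3 in control and 14.4 in TNF-treated cells. Spon2, spondin 2, averaged 14.8 in proliferating, 37.2 in control and 8.03 in TNF-treated cells. Ptn, pleiotrophin, averaged 13.2 in proliferating, 25.8 in control and 7.97 in TNF-treated cells.

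Other genes held with TNF a level within 1.5-fold of proliferation, by the 95% interval, while control cells differed from both. Fbln7, fibulin 7, measured 2.20, 1.86 and 1.61 CPM in proliferating cells, 2.08, 1.80 and 2.06 CPM with TNF and 27.3 ± 1.80 CPM in control cells, so the log2 fold change was 0.07 from proliferation (adjusted p = 0.755) and -3.78 from control. Csdc2, Nav2 and Sntb1 averaged 5.27, 7.09 and 11.4 CPM in proliferating cells, 5.71, 7.42 and 10.8 with TNF and 21.7, 23.3 and 36.5 in control cells. Plxdc2 averaged 4.15 in proliferating, 14.7 in control and 4.83 in TNF-treated cells. Tnnt2 averaged 93 in proliferating, 301 in control and 104 in TNF-treated cells. In the other direction, Il18rap, an IL-18 receptor chain, averaged 9.49 in proliferating, 1.65 in control and 10.2 in TNF-treated cells (CPM) and Rnd1, a small GTPase, 10.5 in proliferating, 2.24 in control and 9.02 in TNF-treated cells. Of these 8, Rnd1 was called against proliferation under 6 of 18 alternatives, Tnnt2 under 2, and Il18rap and Plxdc2 under 1 each. Rnd1 was called without proliferating replicate B (adjusted p = 0.0208) and without TNF replicate B (adjusted p = 0.0235) by edgeR's quasi-likelihood test. A missing call in these genes does not show equal levels.

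**Figure D5:**
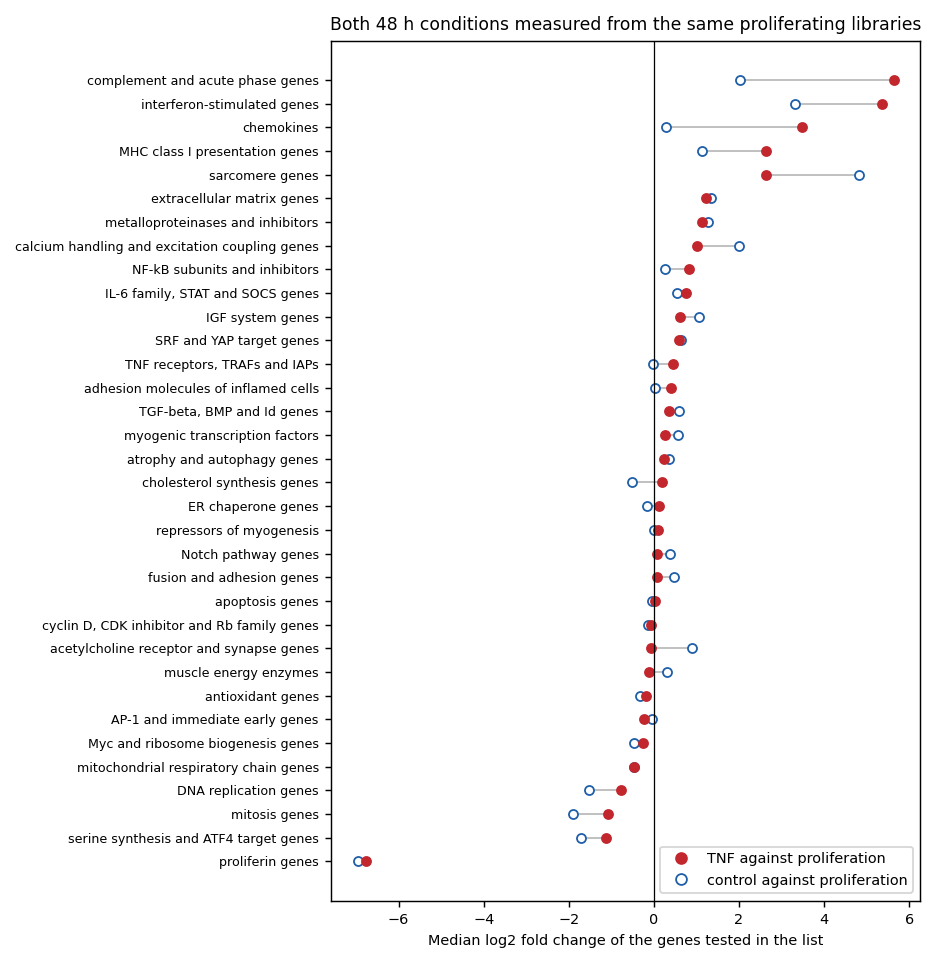
Median log2 fold change of the tested genes of each list from proliferating cells, in TNF-treated cells (filled) and control cells (open), both measured from the same 3 proliferating libraries. Sarcomere genes stood at 2.62 with TNF and 4.81 in control cells, mitosis genes at -1.08 and -1.90, chemokines at 3.49 and 0.295, and respiratory chain genes at -0.458 and -0.467.

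Fbxl2, which encodes the F-box protein named in the title of the series, measured 27.2, 26.6 and 24 CPM in proliferating cells, 27.7, 29.2 and 29.6 CPM with TNF and 32.9 ± 1.30 CPM in control cells. The log2 fold change from proliferation was 0.15 ± 0.064 (SE), adjusted p = 0.0371, with all TNF libraries above all proliferating ones. The call was lost under 9 of 18 alternatives, with adjusted p-values from 0.0164 to 0.428 over all of them. It ended without proliferating replicate C (adjusted p = 0.208), TNF replicate B (0.0876) or TNF replicate C (0.119) by edgeR's quasi-likelihood test. Against control the log2 difference was -0.19 ± 0.062 (SE), adjusted p = 0.0137.

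Markers of other cell types were read as a check of the label. Defining macrophage markers Ptprc, Adgre1, Itgam, Fcgr1 and Aif1 lay below the filter, with means from 0 to 0.157 CPM in these groups, and the summed level of the 9 macrophage markers was 14.5 to 15.5 CPM in proliferating and 12.4 to 13.5 CPM in TNF-treated cells, mostly Cd14. Lyz2, called higher, averaged 0.0124 in proliferating, 0.564 in control and 0.224 in TNF-treated cells (CPM). Csf1r, also called higher, averaged 0.210 in proliferating, 0.694 in control and 1.12 in TNF-treated cells, and 1 of these calls was lost when only the 6 libraries were fitted. Endothelial markers summed to 0.625 to 0.921 and 0.927 to 1.21 CPM. All 6 smooth muscle markers tested rose, 5 by at least 2-fold, while Myh11 and Myocd lay below the filter. They summed to 829 to 835 CPM in proliferating, 3730 to 3920 CPM in control and 4340 to 4490 CPM in TNF-treated cells. Acta2, Tagln, Cnn1 and Lmod1 stand both in that list and among the SRF and YAP targets. Of 8 fibroblast markers tested 6 rose, 1 fell and 1 was not called, with Thy1 and Tcf21 at 0 in both groups. The list summed to 573 to 599 CPM in proliferating, 1290 to 1340 CPM in control and 936 to 1000 CPM in TNF-treated cells. Dcn, decorin, rose from 34.2, 25.7 and 27.9 to 124, 118 and 114 CPM, below its control mean of 488 CPM. The 7 called skeletal muscle lineage markers all fell. Of 10 reserve and satellite cell markers 5 rose and 5 fell, against 36.3% of all genes called higher and 36.5% called lower. Their summed level was 590 to 603 CPM in proliferating and 1210 to 1270 CPM in TNF-treated cells. Most of that difference was Vcam1, which also stands among the adhesion molecules. It averaged 138 in proliferating, 203 in control and 704 in TNF-treated cells (CPM). Pax7 averaged 9.18 in proliferating, 19.2 in control and 12.9 in TNF-treated cells (CPM). Osteoblast and adipocyte markers fell in 3 of 5 and 3 of 4 cases, 1 osteoblast marker was called higher, and the lists summed to 7070 to 7450 and 60.5 to 61.8 CPM in proliferating and 1320 to 1380 and 33.9 to 36.0 CPM in TNF-treated cells; Spp1, osteopontin, fell from 6993, 7381 and 7322 to 1263, 1317 and 1331 CPM (log2 fold change -2.47 ± 0.051 (SE), adjusted p = 7.83e-20). The osteoblast marker called higher, Alpl, had 0 counts in proliferating cells and 0.0640, 0.0736 and 0.106 CPM with TNF, at or under the floor in each library, against a mean of 0.724 CPM in control cells. Pparg, the adipogenic receptor, fell from 12.7, 13.6 and 13.3 to 2.72, 3.42 and 3.22 CPM. In control cells Spp1 and Pparg averaged 1133 and 5.97 CPM. What part such cell states have in the lists above was not tested.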

How the data were processed

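RNA of C2C12 cells was sequenced from 12 libraries, 3 in each of 4 groups, and groups were taken from the sample labels. The deposited counts per gene symbol are whole numbers that were not normalized. CASAVA, DESeq2 and the mouse build mm10 are named, per the submitters' processing notes. Which aligner, counter, annotation and strand setting were used is not given in the sources used here; near-identical copies and overlapping or antisense genes may share reads. The authors' deposited table for proliferation holds log2 fold changes and adjusted p-values and was compared with the fit made here; other tables of the authors were not used here.

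Of 21232 gene rows, 4354 had no count. Counts were fitted with edgeR 4.0.16 (R 4.3.3; limma 3.58.1), TMM factors, filterByExpr over the 4 groups, all 12 libraries and robust quasi-likelihood tests with 8 residual degrees of freedom, and p-values were adjusted by Benjamini-Hochberg over 12736 genes. Genes with an adjusted p under 0.05 were called. SE is the log2 fold change divided by the root of the test's F value. The biological coefficient of variation had a median of 0.0482 over genes. Intervals of ratios and the floor of 3 counts cover counting error only. Tested on simulated data of these libraries (12736 genes), the fit of TNF against proliferation recovered 54% of genes changed 1.2-fold, 88% at 1.5-fold, 94% at 2-fold and 100% at 4-fold, with 0.09% of unchanged genes called. In the simulation 50 genes were changed at each fold and 12536 were not. All genes shared the same spread, and very low means were raised. In the data most genes were called and spread differed between genes, so these shares need not hold there.

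The comparison, the 42 gene lists (34 pathways and 8 marker lists, 985 genes, of which 884 were tested, 92 lay below the filter and 9 were absent) and the naming rule were chosen with earlier results of these data known. The rule named 11 fixed genes and the 8 largest rises and falls with at least 10 CPM in the higher and 1 CPM in the lower group. It also named the 5 most abundant genes in each direction with 3 counts or fewer in the lower group, and in each list the 3 largest called changes of the commoner direction and the largest of the other, at 10 CPM or more. To these came 6 genes in each direction called with opposite signs in TNF and control cells against proliferation, and 8 genes not called with TNF whose 95% interval lay within 1.5-fold of proliferation while control differed. Some genes that the rule names are not reported here. Other list members and the 9 promoters shown were chosen after their values and motifs were seen. Promoters are those of RefSeq (GRCm38.p6), 27025 genes with chromosome 18 left out, scanned on both strands for the motifs the report names and for the GC box GGGCGG. Alternatives were other scaling factors, DESeq2 1.42.0, limma-voom, other filters, fewer libraries, a replicate block and a narrower promoter window. Leaving out 1 library in a group of 3 left 2.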

Additional observations from a re-analysis of the deposited data

How the results depend on the processing

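The number of genes called between TNF and proliferation stayed within 1.5 times of 9279 under all 18 alternatives, from 7815 (without the libraries of letter C) to 9465 (no filter on low counts), and was 9028 with DESeq2, 9276 with limma-voom and 8756 from the 6 libraries alone. Leaving out 1 library at a time gave 8819 to 9212. TNF against control ranged from 5000 to 7517 (6203 to 6609 leaving out 1 library), and control against proliferation from 8582 to 10086 (9350 to 9785). Scaling by library totals moved the share of higher calls in TNF against control from 56.8% to 46.1%, and upper quartile factors to 46.5%. The labels do not pair the replicate letters, and same-letter deviations did not correlate above 0.1 in every pair (A, B and C: -0.039, -0.096 and 0.016 between proliferation and TNF, and 0.183, 0.045 and -0.059 between control and TNF), although replicate A was highest in all 3 groups for Myog, Myh3, Acta1, Mybph and Mymk. With the letter as a replicate block 9391, 7070 and 9897 genes were called in TNF against proliferation, TNF against control and control against proliferation. Of 3237 values of 180 named genes under these settings, 3206 kept their side of the threshold, 21 were no longer called, 10 were newly called and 0 reversed. A change of sign where neither value was called was not counted as reversed. Of those lost, Cdkn1a held 10 and Fbxl2 9; Actb and Cebpa were lost when replicate C of every group was left out (adjusted p = 0.109 and 0.0603 by edgeR's quasi-likelihood test). Of 756 list counts 7 moved by more than 1.5 times, in ER chaperones (from 8 to 13 higher), macrophage markers (from 2 to 1 or 0) and endothelial markers (from 0 to 1). With the promoter window narrowed to 100 bases before and 50 after the start, the share of MHC class I presentation promoters with the NF-kB consensus was 0.0% against 47.4%. The share of all promoters with it was 4.1% against 8.18%. The causes were not tested. With 3 libraries a group, and a recovery of 54% at 1.2-fold in a simulation whose settings differ from the data, a missing call does not show an equal level.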

Other observations

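Cholesterol synthesis genes stood above their control level with TNF. Of 25 tested, 15 were higher than in proliferating cells, 1 of them by at least 2-fold, 3 were lower and 7 were not called, with a median log2 fold change of 0.199, beside -0.509 in control cells and 0.783 for TNF against control. Cyp51, lanosterol demethylase, measured 201, 251 and 221 CPM in proliferating cells and 521, 500 and 490 CPM with TNF (log2 fold change 1.17 ± 0.065 (SE), adjusted p = 2.6e-12). Hmgcs1, which makes the precursor of mevalonate, rose by 0.57 on the log2 scale, and Pmvk fell by 0.97. Among 20 ER chaperone genes 8 rose, 2 fell and 10 were not called, against 36.3% of all genes called higher and 36.5% called lower. Sel1l, Calr and Syvn1 were higher by 0.63, 0.61 and 0.57 on the log2 scale and Sec61b was lower (log2 fold change -0.35). Without proliferating replicate B 13 of the 20 were called higher.

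Of 28 AP-1 and immediate early genes 10 rose, 14 fell and 4 were not called, against 36.3% of all genes called higher and 36.5% called lower. Atf3, a stress-induced repressor, fell from 47, 31.8 and 36.8 to 4.29, 4.96 and 3.90 CPM (log2 fold change -3.14 ± 0.15 (SE), adjusted p = 1.26e-10), below its control level of 7.75 ± 0.905 CPM. Fosl1 and Dusp5, a phosphatase of ERK, fell, with log2 fold changes of -1.34 and -1.33, and Egr2 rose by 1.58. In the atrophy and autophagy list 16 of 26 genes rose, 5 fell and 5 were not called. Fbxo32, the muscle ubiquitin ligase atrogin-1, averaged 60.6 in proliferating, 146 in control and 118 in TNF-treated cells (CPM), Foxo1 20.2 in proliferating, 43.4 in control and 43.5 in TNF-treated cells and Capn3 5.50 in proliferating, 21.9 in control and 15.6 in TNF-treated cells. Trim63, the ubiquitin ligase MuRF1, averaged 0.338 in proliferating, 9.17 in control and 1.91 in TNF-treated cells, and Ctsl fell by 0.44. Of 23 apoptosis genes 10 rose, 9 fell and 4 were not called, against 36.3% of all genes called higher and 36.5% called lower. The inflammatory caspase genes Casp1 and Casp4 rose from 1.02, 1.15 and 0.690 to 9.60, 10.4 and 10.1 CPM and from 8.26, 7.56 and 7.13 to 66, 72.5 and 73.9 CPM, and Casp12 rose by 1.89.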
